A study of Mus musculus with 6 samples.

Results

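The genes described here encode the proteins that coat, build and fuse lipid droplets: the perilipins Plin1, Plin2, Plin3, Plin4 and Plin5, the fusion protein gene Cidec, the droplet budding genes Fitm1 and Fitm2, and the lipase inhibitor gene Hilpda. They were found by NCBI gene identifier, and all 9 were present among the 19790 genes of the table. The data are RNA-seq read counts of the gonadal white fat pad (gWAT), a visceral depot that lies next to the reproductive tract. Wild-type male C57BL/6 mice received a normal chow diet (NCD, 3 mice) or a high-fat diet (HFD, 3 mice) for 8 weeks, with 1 library per mouse. The sample labels place the start of the diet at 6 weeks of age, whereas the methods give 8 weeks for diet-induced obesity. Whole tissue was used, so that fewer cells of a type and less RNA per cell cannot be told apart.

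Fat cells store triglyceride in a droplet that is enclosed by a single layer of phospholipid. Droplets bud from the endoplasmic reticulum, grow, and in white fat fuse into a single large one, and the proteins on their surface set how much lipase reaches the core. Perilipin 1 is the main coat protein of the adipocyte droplet and restrains basal lipolysis by holding the lipase co-activator ABHD5, whereas perilipin 2 is the widely expressed coat protein of small droplets in liver, macrophages and many other cells.

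Depth was between 49575113 and 66360046 counts per library. Secretory genes of the seminal vesicle (11 genes) took 58.6% of the reads of NCD replicate 1, 11.2% and 2.30% of those of NCD replicates 2 and 3, and at most 8 counts of any HFD library. The 9 droplet genes together held only 0.0763% of the reads of NCD replicate 1, whereas they held 0.527% to 0.808% of the remaining libraries. Counts were therefore scaled by TMM, a method that matches the libraries on the bulk of their genes. The edgeR test of each gene was run with and without NCD replicate 1. Adipocyte identity was checked with 10 marker genes, whose summed TMM-scaled counts relative to the library total (CPM) were 7902, 29981 and 42603 on NCD and 14687, 16031 and 11616 on HFD. The markers did not move together, with log2 differences over all 6 mice from -3.02 (Cfd) to 1.25 (Lep), and 0 of the 10 passed the edgeR test. With NCD replicate 1 left out, 6 of the 10 passed, all lower on HFD (10.1% of all genes passed as lower). A list of 10 macrophage markers summed to 723, 910 and 784 CPM on NCD and to 4945, 2207 and 2693 CPM on HFD, and 4 of the 10 passed the edgeR test over all 6 mice, all higher on HFD (7.47% of all genes passed, 5.58% as higher). With NCD replicate 1 left out, 9 of the 10 macrophage markers passed, all higher (20.9% of all genes passed, 10.7% as higher). The 6 brown adipocyte markers together did not exceed 13.0 CPM in any library. The 8 skeletal muscle markers summed to 393 CPM in NCD replicate 1, of which 382 CPM were Acta1, and to between 4.26 and 41.2 CPM elsewhere. Ckm at 8.71 CPM and Mb at 1.07 CPM were also higher in NCD replicate 1 than in any other library. Tnnt3 and Tnni2 were lower there than in any other library, and Myh1 and Mylpf lay within the range of the others. The myosin gene Myh4 was at 0 in every library except NCD replicate 2. The part of seminal vesicle or macrophage RNA in the diet differences below was not tested.

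Promoter sequences of Hilpda and Plin2 are shown because these were the members with the highest levels on HFD relative to NCD. All sequences are from RefSeq on mouse build GRCm38.p6, the build that the submitters' processing notes name as mm10. Hilpda lies at chr6:29272488-29275449 and has a pair of annotated start sites 138 bases apart. The 250 bases before the first start are at chr6:29272238-29272487 on the plus strand and contain none of the motifs searched:
Hilpda, first start: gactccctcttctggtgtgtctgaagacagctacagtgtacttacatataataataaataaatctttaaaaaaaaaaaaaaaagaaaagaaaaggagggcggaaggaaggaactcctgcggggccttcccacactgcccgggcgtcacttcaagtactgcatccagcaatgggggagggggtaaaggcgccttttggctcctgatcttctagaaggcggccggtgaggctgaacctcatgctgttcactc
Stretches of 30 bases before the second start follow, with matches to the hypoxia response cores ACGTG and GCGTG in capitals. They are at chr6:29272503-29272532, chr6:29272571-29272600 and chr6:29272596-29272625, with the matches starting at -111, -43 and -8 from the second start:
Hilpda, second start, distal: caaccgcgagccGCGTGctttccgtgactc
Hilpda, second start, middle: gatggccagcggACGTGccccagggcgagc
Hilpda, second start, proximal: cgagctcgtgcaggttcggtacGCGTGcgc

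Plin2 lies at chr4:86626910-86670217 and is read from the minus strand. The 92 bases before its annotated span, chr4:86670218-86670309, hold a nuclear receptor core site AGGTCA in reverse, written as TGACCT in capitals and starting at -218 from the start site. A core GCGTG in reverse, written as CACGC in capitals, starts at -86 and is shown in chr4:86670128-86670157:
Plin2, distal: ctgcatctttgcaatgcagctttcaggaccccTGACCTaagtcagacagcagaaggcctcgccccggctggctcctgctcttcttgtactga
Plin2, proximal: ggttggggttccCACGCcctcatccccaat
Both strands of the 250 bases before each start were searched, and the same search was made in 32851 mouse promoters. The hypoxia core ACGTG occurred in 16.6% of them and the related core GCGTG in 28.2%. The E-box CACGTG, which contains the first of these cores, occurred in 6.02%. The nuclear receptor core AGGTCA occurred in 14.0%, and its direct repeat with a single base between the copies (DR1) in 0.033%. GCGTG was also present before a start of Plin5, Cidec and Fitm2, and the nuclear receptor core before a start of Plin5. Plin1, Plin3, Plin4 and Fitm1 had no match to any of these motifs in this window. A match is a description of the letters and not of a bound site.

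Among the coat proteins, Plin2 was above Plin1 in every HFD mouse and below it in every NCD mouse. Levels are given as TMM-scaled FPKM, which divides the scaled counts by exon length so that genes can be compared. Plin2 was at 56.8, 299 and 250 FPKM in NCD replicates 1, 2 and 3 and at 642, 419 and 547 FPKM in HFD replicates 1, 2 and 3. The lowest HFD mouse was above the highest NCD mouse, and NCD replicate 1 was far below its group. The log2 difference of Plin2 was 1.41 (SE 0.612), which did not pass edgeR's quasi-likelihood test (Benjamini-Hochberg adjusted p = 0.186, n = 3 and 3). When NCD replicate 1 was left out, it was higher on HFD by 0.98 on the log2 scale (SE 0.249), or 1.97-fold, and passed the same edgeR test (adjusted p = 0.0437).

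Plin1 (chr7:79721164-79732904) was at 74.1, 333 and 319 FPKM on NCD and at 153, 168 and 110 FPKM on HFD. Each HFD mouse lay below NCD replicates 2 and 3 and above NCD replicate 1, so that the diets overlapped only through that library. The log2 difference over all 6 mice was -0.75 (SE 0.579, edgeR adjusted p = 0.415). When NCD replicate 1 was left out it was -1.17 (SE 0.231), and Plin1 passed the edgeR test as lower on HFD (adjusted p = 0.0234).

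A ratio of Plin2 to Plin1 taken inside each library is free of any scaling between libraries. It was 0.766, 0.897 and 0.784 in the NCD libraries and 4.2, 2.49 and 4.99 in the HFD libraries. The ratios of the diets did not overlap, and NCD replicate 1 lay beside its group here. The mean log2 ratio was -0.30 ± 0.123 on NCD and 1.90 ± 0.522 on HFD (SD, n = 3 each), a difference of 2.20 or 4.59-fold. In an exact permutation test, two-sided, p was 0.1, the smallest value that 3 mice against 3 can give. The difference was 2.16 when NCD replicate 1 was left out. The ratios depend on the length taken for Plin1, because the union of its exons (3873 bases) is longer than the transcript that GENCODE numbers first (1916 bases). With the lengths of the first-numbered transcripts, the Plin2 to Plin1 ratio was 0.379, 0.444 and 0.388 on NCD and 2.08, 1.23 and 2.47 on HFD, with the same difference between diets.

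**Figure D1:**
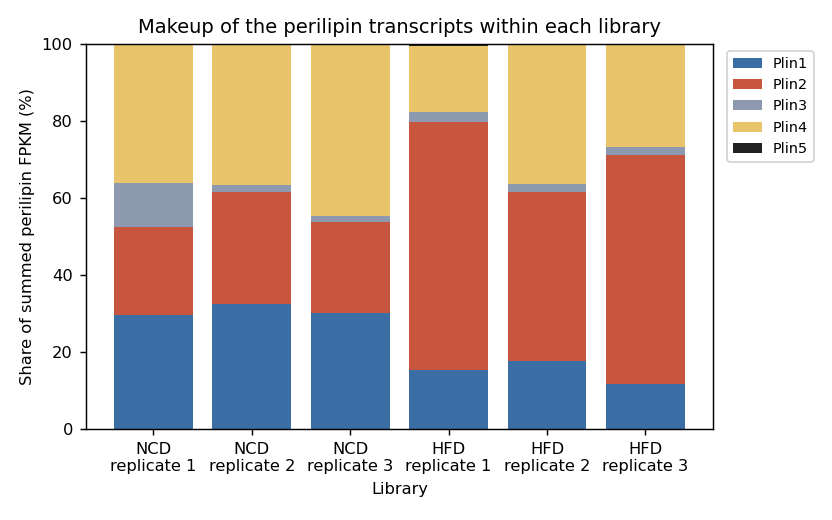
Share of the summed FPKM of the 5 perilipin genes (percent, vertical axis) taken by each gene in each library (horizontal axis), as stacked bars. Plin1 took between 29.7% and 32.5% in the NCD libraries and between 11.9% and 17.6% in the HFD libraries, and Plin2 took between 44.0% and 64.5% on HFD.

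The makeup of the perilipin transcripts also differed, as the stacked bars of perilipin shares show. Plin1 made up 29.7%, 32.5% and 30.1% of the summed perilipin FPKM on NCD and 15.4%, 17.6% and 11.9% on HFD. The means were 30.8% ± 1.52 and 14.96% ± 2.91 (SD, n = 3 each), and the difference of -15.8 percentage points gave the smallest exact permutation p of 0.1. Plin2 made up 22.8%, 29.2% and 23.6% on NCD and 64.5%, 44.0% and 59.2% on HFD. Neither gene's shares overlapped between the diets, although the shares of a whole are not independent of each other. The summed perilipin level was 250, 1023 and 1058 FPKM on NCD and 995, 953 and 924 FPKM on HFD, so that all HFD libraries lay below NCD replicates 2 and 3.

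Plin4, which coats small nascent droplets and is abundant in white adipocytes, was at 89.3, 370 and 469 FPKM on NCD and at 171, 343 and 244 FPKM on HFD. The diets overlapped, and its log2 difference was -0.29 (SE 0.653, edgeR adjusted p = 0.787). The Plin4 to Plin1 ratio was 1.204, 1.11 and 1.47 on NCD and 1.12, 2.04 and 2.23 on HFD. HFD replicate 1 lay within the NCD range and the other HFD mice above it, and the log2 difference of 0.46 was not distinguishable from the spread between mice (exact permutation p = 0.3). With the lengths of the first-numbered transcripts, Plin4 was below Plin1 in every NCD mouse, at 0.598, 0.552 and 0.730 of its level, so that the order of these genes depended on the gene model.

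Plin5 ties droplets to mitochondria in oxidative tissues and was the least abundant perilipin, with 53, 477 and 396 counts on NCD and 707, 537 and 392 counts on HFD. Its levels were 0.773, 3.82 and 3.53 FPKM on NCD and 5.87, 3.08 and 2.99 FPKM on HFD. HFD replicate 1 was the highest and the other HFD mice were below NCD replicates 2 and 3. The log2 difference was 0.55 (SE 0.622, edgeR adjusted p = 0.578), and 0.13 (SE 0.338, adjusted p = 0.813) without NCD replicate 1.

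Plin3, the ubiquitous perilipin that moves from the cytosol onto new droplets, was the exception among the members. It was at 28.6, 18.0 and 16.7 FPKM on NCD and at 23.5, 19.9 and 19.8 FPKM on HFD. NCD replicate 1 was the highest library for Plin3 and the lowest NCD library for the 7 other members tested. Its log2 difference was -0.00 (SE 0.240, edgeR adjusted p = 0.995) and changed sign with most other settings, reaching 0.29 (SE 0.125, adjusted p = 0.152) without NCD replicate 1. Plin4 and Plin5 are neighbours on chromosome 17, at chr17:56100587-56109948 and chr17:56111597-56117606 with 1648 bases between them, and Plin3 lies 161355 bases beyond Plin5.

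**Figure D2:**
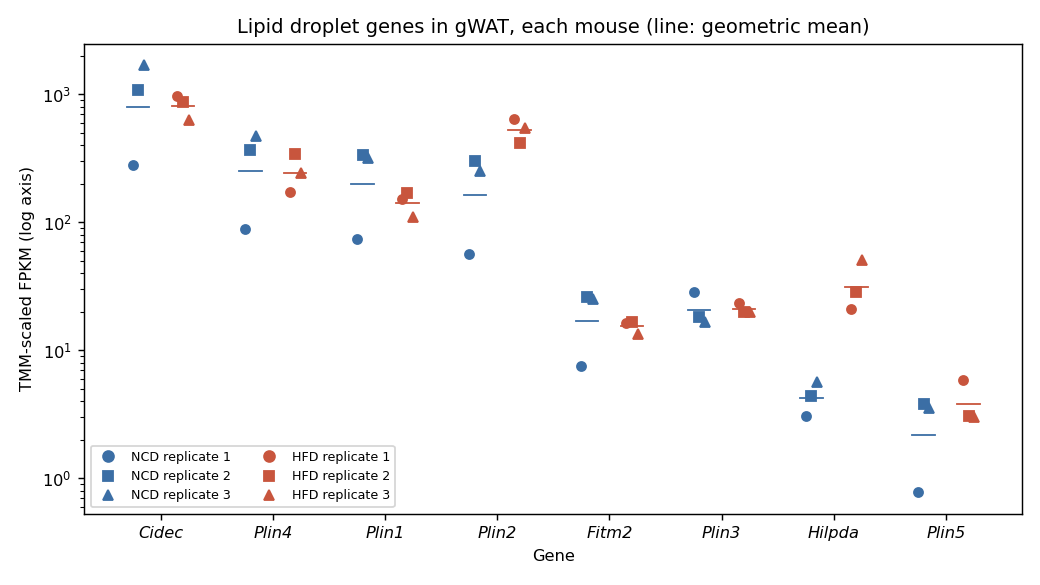
TMM-scaled FPKM (vertical log axis) of the 8 tested droplet genes in each of the 6 mice, with NCD in blue and HFD in red, a symbol shape per replicate and a line at each geometric mean. NCD replicate 1 is the lowest NCD point for every gene except Plin3, and the diets are apart for Plin2 and Hilpda.

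Cidec (chr6:113424634-113435760), which passes triglyceride from smaller to larger droplets at their contact sites and so builds the single droplet of white fat, was the most abundant member in every mouse. It was at 280, 1089 and 1682 FPKM on NCD and at 966, 872 and 630 FPKM on HFD. Among the genes with a length and outside the seminal vesicle list, it ranked 21 and 15 by FPKM in NCD replicates 2 and 3, 140 in NCD replicate 1, and between 24 and 38 on HFD. The HFD mice lay within the NCD range, and the log2 difference was -0.31 (SE 0.653, edgeR adjusted p = 0.777). All HFD mice were below NCD replicates 2 and 3, and without NCD replicate 1 the log2 difference was -0.74 (SE 0.314), which did not pass the edgeR test (adjusted p = 0.147). Relative to Plin1 in the same library, Cidec was at 3.77, 3.27 and 5.27 on NCD and at 6.33, 5.19 and 5.74 on HFD, and HFD replicate 2 lay below the highest NCD mouse.

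Its relative Cidea, the fusion protein of brown fat droplets, was low, at 0.122, 0.736 and 1.84 CPM on NCD and at 0.555, 0.204 and 0.414 CPM on HFD. The diets overlapped, and its log2 difference was -1.22 (SE 0.919, edgeR adjusted p = 0.407).

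The FIT proteins act in the endoplasmic reticulum, where droplets bud towards the cytosol. Fitm1, the form of skeletal muscle and heart, received 0, 2 and 0 counts on NCD and 3, 2 and 0 counts on HFD. These values are at or below the floor of 3 counts, which corresponds to between 0.0452 and 0.0605 CPM of the library total, so that Fitm1 was not detectable at this depth and was left out of the test. Fitm2 (chr2:163468703-163472629), the widely expressed form that is abundant in fat, was at 7.47, 25.9 and 25.2 FPKM on NCD and at 16.2, 16.7 and 13.5 FPKM on HFD. As for Plin1, each HFD mouse lay between NCD replicate 1 and the other NCD mice. The log2 difference was -0.34 (SE 0.458, edgeR adjusted p = 0.649), and without NCD replicate 1 Fitm2 was lower on HFD by the edgeR test, at -0.71 (SE 0.128, adjusted p = 0.0182).

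Hilpda, a small droplet protein that inhibits the triglyceride lipase ATGL and is known to be induced by low oxygen and by fatty acids, had the largest difference between diets of the members. It received 111, 291 and 337 counts on NCD and 1331, 2644 and 3493 counts on HFD, or 3.06, 4.41 and 5.69 FPKM and 20.9, 28.7 and 50.5 FPKM. All HFD mice were above all NCD mice, including NCD replicate 1. The log2 difference was 2.92 (SE 0.416), a 7.59-fold higher level on HFD (edgeR adjusted p = 0.0228). Without NCD replicate 1 it was 2.74 (SE 0.436, edgeR adjusted p = 0.0139), or 6.69-fold. Leaving out any other single mouse ended the call, with edgeR adjusted p between 0.0548 and 0.0971. Those fits called only between 2 and 7 of all genes tested, and the log2 difference of Hilpda in them was between 2.51 and 3.18. By FPKM, Hilpda ranked between 7310 and 9598 among the genes of the NCD libraries and between 1135 and 2820 on HFD. Relative to Plin1 in the same library, it was at 0.0413, 0.0133 and 0.0178 on NCD and at 0.137, 0.171 and 0.460 on HFD, again without overlap.

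**Figure D3:**
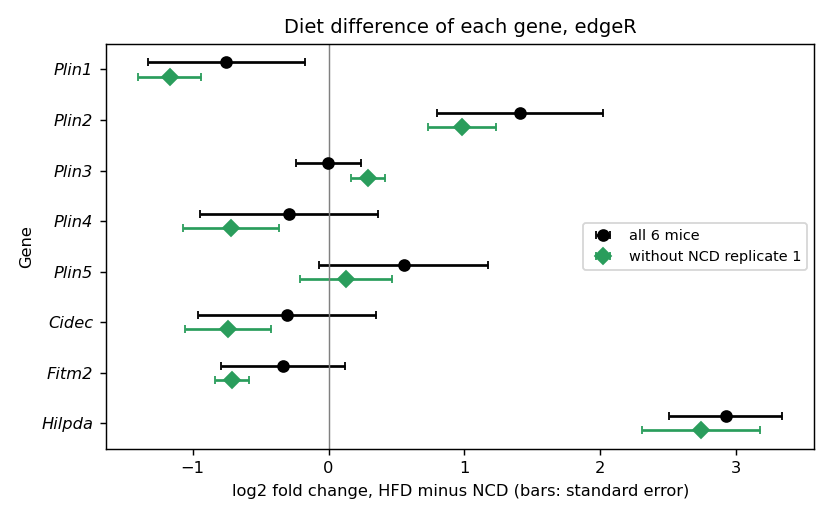
Log2 fold change of each tested droplet gene, HFD minus NCD (horizontal axis, bars give the standard error), from edgeR with all 6 mice (black circles) and without NCD replicate 1 (green diamonds). Hilpda stands at 2.92 and 2.74, Plin2 at 1.41 and 0.98, and Plin1 at -0.75 and -1.17.

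Counted together, 1 of the 8 members tested passed the edgeR test over all 6 mice, Hilpda, compared with 7.47% of the 15241 genes tested and 5.58% that passed as higher on HFD. Without NCD replicate 1, 4 of 8 passed, with Hilpda and Plin2 higher and Plin1 and Fitm2 lower on HFD, compared with 20.9% of all genes, 10.7% higher and 10.1% lower. The plot of log2 fold changes shows that leaving out this library moved 7 of the 8 estimates downwards and narrowed most of their standard errors. The diets did not overlap for 2 of the 8 members over all 6 mice (Plin2 and Hilpda), both higher on HFD, whereas 39.2% of all genes did not overlap and 20.5% were higher without overlap. With that library left out they did not overlap for 7 of 8, with 3 higher and 4 lower on HFD, compared with 57.1% of all genes (27.9% higher and 29.1% lower), and Plin5 was the exception. The median log2 difference of the members was -0.15, beside -0.08 for all genes tested, and -0.29 beside 0.02 without NCD replicate 1.

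**Figure D4:**
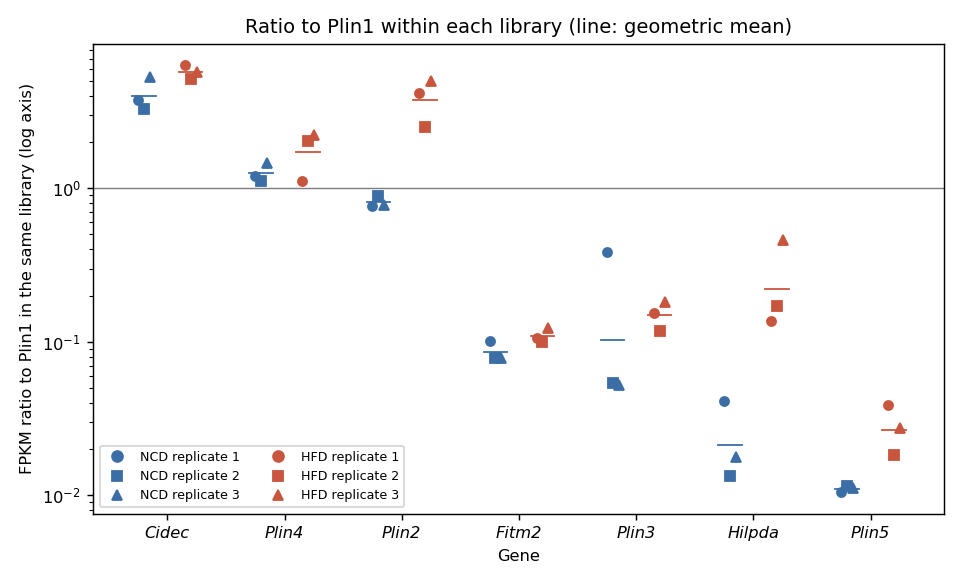
FPKM of each droplet gene divided by that of Plin1 in the same library (vertical log axis; the grey line marks equal levels), with NCD in blue, HFD in red and a line at each geometric mean. The Plin2, Hilpda and Plin5 ratios of the HFD mice are all above those of the NCD mice, and Plin2 crosses the line of equal levels.

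The order of the members within a mouse also differed between diets. In every NCD mouse the order by FPKM was Cidec, Plin4, Plin1 and Plin2, and in every HFD mouse it was Cidec, Plin2, Plin4 and Plin1. The levels of Plin4, Plin1 and Plin2 overlapped between genes over the NCD mice, and over the HFD mice those of Cidec and Plin2 did so, while Plin2, Plin4 and Plin1 held separate ranges. With the lengths of the first-numbered transcripts, Plin1 came before Plin4 in every NCD mouse and in HFD replicate 1, whereas Plin2 was still behind Plin1 in every NCD mouse and ahead of it in every HFD mouse. In the plot of ratios to Plin1, Plin5 was at 0.0104, 0.0115 and 0.0111 on NCD and at 0.0385, 0.0183 and 0.0273 on HFD, without overlap. Plin3 relative to Plin1 was at 0.386 in NCD replicate 1, 0.0542 and 0.0524 in the other NCD mice, and 0.154, 0.118 and 0.181 on HFD. For Fitm2 the ratios were between 0.0779 and 0.101 on NCD and between 0.0994 and 0.123 on HFD, which overlapped. The ratios of genes other than Plin2 and Plin4 were chosen after their values were seen and are given as a description.

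Because the adipocyte markers also differed between libraries, each member was set against the mean log2 CPM of the 10 adipocyte markers in the same library. Of these markers, 6 passed the edgeR test as lower on HFD without NCD replicate 1 (10.1% of all genes did). The differences below therefore include any fall of the reference itself. On this scale the diets did not overlap for 6 of the 8 members, all higher on HFD, compared with 17.4% of genes higher without overlap. The log2 differences were 3.59 for Hilpda, 2.42 for Plin2, 1.51 for Plin5, 0.73 for Cidec, 0.68 for Plin4 and 0.58 for Fitm2. Each had the smallest exact permutation p of 0.1, among 8 genes tested. Plin1 relative to the markers differed by 0.22 and Plin3 by 0.75, both with overlap between diets. The result depended on the reference, since relative to Adipoq, the adiponectin gene, alone only 3 of 8 did not overlap, compared with 13.1% of genes (7.77% higher and 5.36% lower). These were Hilpda at 2.76, Plin2 at 1.59 and Plin1 at -0.61.

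Genes whose profile over the 6 mice was most like that of a member were sought among 9887 genes, by the root mean square difference of log2 CPM after centring. For Plin1 they were Cebpa at 0.097, Tmem45b at 0.110 and Prkd1 at 0.1205, beside a median of 0.851 over all genes. For Cidec they were Rgcc at 0.088, Adipoq at 0.111 and Tspan12 at 0.117. Cebpa, an adipocyte transcription factor, and Adipoq were members of the adipocyte marker list. For Plin2 the closest were Anxa2 at 0.1802, Cd93 at 0.208 and Igf2bp2 at 0.212. For Hilpda they included Plek at 0.182 and Itgam at 0.208, of which Itgam encodes the integrin CD11b of myeloid cells. These values describe 6 libraries that share the strong difference of NCD replicate 1.

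Among 42 other lipid droplet genes in 4 lists, 41 were tested and 1 passed over all 6 mice (2.44%, compared with 7.47% of all genes). This was Pnpla3, a lipase and acyltransferase of the droplet surface, at 268, 918 and 1091 CPM on NCD and 73.9, 83.3 and 34.4 CPM on HFD. All HFD mice were below all NCD mice, and Pnpla3 fell by 3.57 on the log2 scale (SE 0.647, edgeR adjusted p = 0.0335). The median log2 difference of the 41 genes was -0.56, with 33 below 0, beside a median of -0.08 over all genes. With NCD replicate 1 left out, 15 passed as lower and 1 (Spg20) as higher, 39.0% in all compared with 20.9% of all genes. By list, these were 6 of 13 droplet formation genes, 3 of 9 fusion and contact genes and 4 of 6 lipolysis genes, all lower, and 3 of 13 surface protein genes.

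**Figure D5:**
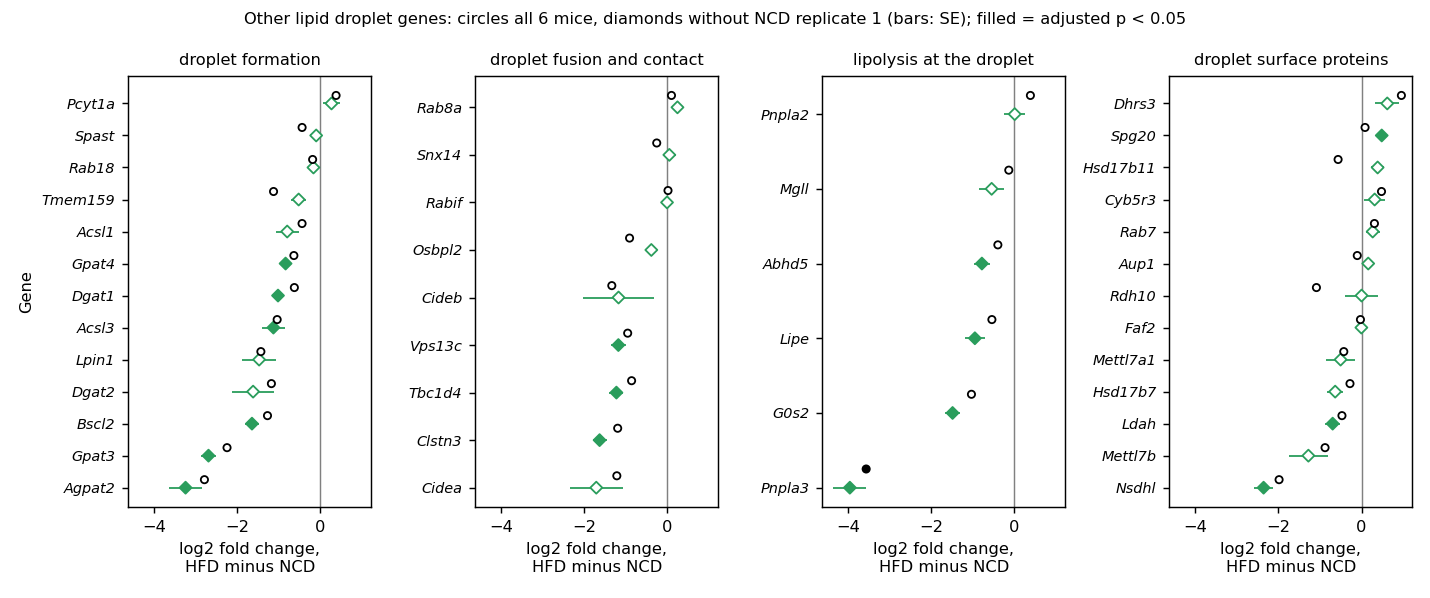
Log2 fold change, HFD minus NCD (horizontal axis), of 41 other lipid droplet genes in 4 lists, with all 6 mice as circles and without NCD replicate 1 as diamonds with standard errors, filled where edgeR's adjusted p was under 0.05. Pnpla3 is the 1 filled circle, and 16 diamonds are filled, 15 of them below 0.

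Of 6 partners of the coat proteins, Pnpla2, Abhd5, G0s2, Lipe, Cidea and Bscl2, 0 passed the edgeR test over all 6 mice (7.47% of all genes passed). Only 1 (Bscl2) had an unadjusted edgeR p under 0.05, as did 4524 of the 15241 genes tested. Bscl2 passed with DESeq2, as did 3904 of these genes. Pnpla2, which encodes ATGL, the lipase of the first step of lipolysis, was at 326, 951 and 1306 CPM on NCD and at 1153, 1285 and 933 CPM on HFD. Its log2 difference was 0.38 (SE 0.522, edgeR adjusted p = 0.649), and 0.01 (adjusted p = 0.989) without NCD replicate 1. The ATGL co-activator gene Abhd5, the ATGL inhibitor gene G0s2 and the hormone-sensitive lipase gene Lipe had log2 differences of -0.40, -1.04 and -0.54 that did not pass. In each, NCD replicate 1 was below every HFD mouse and the other NCD mice above them. Left without that library, all 3 passed the edgeR test as lower on HFD, at -0.78 (adjusted p = 0.0372), -1.49 (adjusted p = 0.00891) and -0.95 (adjusted p = 0.0448). Of all genes, 20.9% passed in that fit, 10.1% as lower.

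Bscl2, which encodes seipin, the protein at the neck of budding droplets, was at 107, 337 and 393 CPM on NCD and at 100, 135 and 112 CPM on HFD. HFD replicate 1 was just below NCD replicate 1 and the other HFD mice were between it and the remaining NCD mice. Its log2 difference was -1.27 (SE 0.480, edgeR adjusted p = 0.143, DESeq2 adjusted p = 0.0479) over all mice. Without NCD replicate 1 it was -1.65 (SE 0.176, edgeR adjusted p = 0.00667). Agpat2, Gpat3 and Nsdhl had the most negative differences after Pnpla3 without this library, at -3.25, -2.69 and -2.36, and were picked after their values were seen. Agpat2 and Gpat3 encode enzymes on the path to the phosphatidic acid from which triglyceride is built, and Nsdhl encodes an enzyme of cholesterol synthesis.

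Lists of genes that respond to low oxygen and to the lipid-sensing PPAR receptors were added as a setting for Hilpda and Plin2, which are known targets of such factors. Of 12 hypoxia-responsive genes, 3 passed the edgeR test over all 6 mice, all higher on HFD (7.47% of all genes passed, 5.58% as higher), with a list median of -0.27. In the fit without NCD replicate 1, 4 passed, 3 higher and 1 lower (20.9% of all genes passed, 10.7% as higher). The lower one was Ldha, lactate dehydrogenase A, at -0.91. The list median in that fit was 0.36, beside 0.02 for all genes. The 3 higher genes were the same in both fits. Over all 6 mice, Car9 (carbonic anhydrase 9) was at 2.26, P4ha1 (a collagen prolyl hydroxylase) at 1.12 and Adm (adrenomedullin) at 0.78 on the log2 scale. Of 10 PPAR target genes, 2 passed over all 6 mice, both higher on HFD (5.58% of all genes passed as higher), with a list median of 1.05. Without NCD replicate 1, 4 passed, all higher (10.7% of all genes passed as higher), with a list median of 0.62. Angptl4, a secreted inhibitor of lipoprotein lipase, was at 53.8, 156 and 211 CPM on NCD and at 789, 757 and 907 CPM on HFD, a log2 difference of 2.54 (edgeR adjusted p = 0.0425). Pdk4, the kinase that limits glucose oxidation, had a log2 difference of 3.06 (edgeR adjusted p = 0.0228). Both were above NCD in every HFD mouse.

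HFD replicate 1 had the highest macrophage marker sum, 4945 CPM, and also the highest Plin2 and Plin5 levels, whereas Hilpda was highest in HFD replicate 3, whose macrophage sum was 2693 CPM. Of the 10 macrophage markers, 8 were highest of the HFD mice in HFD replicate 1 and 2, Cd14 and Mrc1, in HFD replicate 3. Cd14 was at 39.9, 74.7 and 124 CPM and Mrc1 at 300, 303 and 487 CPM in HFD replicates 1, 2 and 3, the same order of mice as for Hilpda. Adgre1, which encodes the macrophage marker F4/80, was at 25.5, 57.2 and 36.2 CPM on NCD and at 418, 211 and 233 CPM on HFD. It passed the edgeR test as higher on HFD (log2 difference 2.86, adjusted p = 0.0238). Cd68, Trem2 and Gpnmb passed as well. In whole tissue the cell source of the Plin2 and Hilpda reads was not tested.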

How the data were processed

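The authors deposited raw read counts per gene, 1 column per mouse, without normalization. The submitters' processing notes list bcl2fastq 2.20.0, Trimmomatic, HISAT2 2.1.0, StringTie 1.3.4d and DESeq2 and mouse build mm10, without stating their roles, and the strand setting of the counting was not given in the sources used here. Of 19790 gene identifiers, 19742 matched a symbol in RefSeq GRCm38.p6, and the other 48 held 0.629% of the counts. All 9 droplet genes and their promoters were matched by symbol. Annotated spans overlap for Plin2 with the pseudogene Gm12551, for Cidec with the lncRNA Gm52871, for Fitm2 with the lncRNA 2310001K24Rik, and for Plin4 with Hdgfl2 over 19 bases.

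Low genes were removed by filterByExpr, at a minimum count of 10 and a minimum total of 15. TMM factors and the functions glmQLFit and glmQLFTest came from edgeR 4.0.16 in R 4.3.3. P-values were adjusted by Benjamini-Hochberg over the 15241 genes kept, with a threshold of 0.05. Standard errors were derived from the log2 fold change and its F statistic. FPKM used the exon union of GENCODE vM21 basic transcripts, which gave a length to 17793 genes (1.05% of the counts were on the rest). The length of the first-numbered GENCODE transcript was an alternative added after the data were seen. Single values were compared by two-sided exact permutation tests (scipy 1.17.1), and 3 mice against 3 cannot go below 0.1. The fits were tested on simulated data.

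Depth was 49575113 to 66360046 counts per library, so that the spread between mice (biological coefficient of variation 0.424) limited the precision except for genes with few counts, such as Fitm1. The floor of 3 counts covers counting error only. Replicates were not duplicates, since chi-square per degree of freedom was 111 to 3438. The droplet genes and all gene lists were chosen with earlier results of these data known. The genes named are the 9 members, Cidea, Pnpla2, Abhd5, G0s2, Lipe and Bscl2, up to 4 rises and 4 falls among the called genes of the other droplet lists, 3 genes most like each of Plin1, Cidec, Plin2 and Hilpda (1 of them is not reported here), and up to 3 called genes each of the hypoxia and PPAR lists. Likeness was computed on log2(CPM + 0.01) among genes with a mean of at least 10 CPM. Alternatives were no filter, median-of-ratios and total-count scaling, TMM without the seminal vesicle genes, DESeq2 1.42.0, limma 3.58.1 on log2(FPKM + 1), the replicate number as a block, and each mouse left out in turn.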

Additional observations from a re-analysis of the deposited data

How the results depend on the processing

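The median log2 difference of all genes was -0.08 in the reported fit, 0.45 with total-count scaling and 0.37 with limma on log2(FPKM + 1). Both of these alternatives scaled by the library total, without TMM. Over 13 alternatives the log2 difference of Hilpda was between 2.51 and 3.36, that of Plin2 between 0.98 and 2.28 and that of Plin5 between 0.13 and 0.88, without a change of sign. The number of genes called, 1139, became 3904 with DESeq2 and 12 with the replicate block, and was between 2 and 3234 with single mice left out, the 3234 without NCD replicate 1. The count of members called, 1, became 0 with the replicate block and was between 0 and 4 with single mice left out. For the other droplet genes the count of 1 became 8 with DESeq2, 0 with total counts, limma and the block, and lay between 0 and 16 with single mice left out. Of the calls, 74.6% were higher on HFD, against 55.1% with DESeq2, 93.9% with limma, 41.7% with the block and 51.5% without NCD replicate 1. The labels give no pairing of mice, and the deposited column of HFD replicate 3 carries the number 4. After the mean of each diet was subtracted gene by gene, log CPM of mice with the same replicate number correlated at -0.06, -0.05 and 0.01. With 3 mice per diet this cannot exclude a pairing. The block left the Plin2 to Plin1 difference at 2.20 (exact sign-flip p = 0.25).

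Some members that were not called changed sign, and the cause was not tested. Plin3 was at 0.0186 without a filter, 0.0019 with median-of-ratios scaling, 0.61 with total counts, 0.0253 with TMM without the seminal vesicle genes, 0.0021 with DESeq2, 0.59 with limma and 0.0350 with the block, and between -0.12 and 0.29 with single mice left out. With limma, whose FPKM was not TMM-scaled, Plin1 was at 0.0860, Plin4 at 0.54, Cidec at 0.60 and Fitm2 at 0.37. Plin4 was at 0.0199 with total counts. With single mice left out Plin4 was between -0.72 and 0.15 and Cidec between -0.74 and 0.28, the positive values without NCD replicate 3. The Plin2 to Plin1 difference was between 1.99 and 2.49, the Plin4 to Plin1 difference between 0.27 and 0.77, and the Plin1 share between -17.2 and -14.3 percentage points with single mice left out, -11.3 without division by length and -21.2 with the lengths of the first-numbered transcripts. Relative to adipocyte markers the count of 6, all higher on HFD, was between 6 and 7 with single mice left out. It was 4 with the median of the markers, all higher. With Adipoq alone it was 3, with Plin1 lower and Hilpda and Plin2 higher (13.1% of genes did not overlap). The share of all genes was not computed for the median or with single mice left out. The filter on low counts kept Fitm1 and Hsd17b13 out of the reported test.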
